A study of Mus musculus with 50 samples.

Results

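The members of this gene set are 10 mouse genes for HP1 proteins and for the machinery that writes or reads methylation of lysine 9 on histone H3 (H3K9). They were chosen by gene symbol as Cbx1, Cbx3, Cbx5, Trim28, Setdb1, Suv39h1, Suv39h2, Ehmt1, Ehmt2 and Atrx. No measured value entered the rule, but earlier results of these data were known when the members were chosen. Each symbol matched 1 row in each of 4 expression tables, among 17043 genes in the table of FPKM values and 55421 genes in each table of TPM values. FPKM and TPM both scale the reads of a gene to its length and to the library, so levels of different genes can be set side by side within a library.

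The series asks which developmental genes β-catenin and its associated proteins regulate in mouse embryonic stem (ES) cells. Of its 50 samples, 32 are RNA libraries and were used, and the other 18 were not analysed here. The FPKM table held 12 libraries of V6.5 ES cells, an established mouse line, grown in 2i, a defined medium that keeps the cells naive by inhibiting MEK and GSK3. They carried a short hairpin RNA against HP1r (shHP1r, 2 libraries), β-catenin (shBcat, 2), E2F6 (shE2F6, 2), or the mock control hairpin (shGFP, 6). The second table held ES cells labelled QKO in 2i medium at 48 h, with shBcat (3) or shGFP (3), and the labels do not spell out QKO or the start of the 48 h. The third followed V6.5 cells in 2i (2) and after 24 h (2) and 48 h (2) in medium for epiblast-like cells (epiLC). The fourth held V6.5 epiLC with shBcat at 24 h, 48 h and 96 h and control epiLC at 96 h, with 2 libraries each, and the control labels name no hairpin. Sources used here do not say which sequence a hairpin targets. Nor do they say that the libraries of a group are separate cultures, and the p-values below therefore rest on a spread that could be technical.

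HP1 proteins bind nucleosomes carrying methylated H3K9 and hold chromatin in a compact, silent state. Mammals have 3 HP1 genes, Cbx1 for HP1β, Cbx3 for HP1γ and Cbx5 for HP1α. The mark is written by several enzymes with different territories: SUV39H1 and SUV39H2 trimethylate repeats around centromeres, SETDB1 trimethylates retroelements, and G9a with its partner GLP (genes Ehmt2 and Ehmt1) dimethylates silent genes. TRIM28, also called KAP1, is recruited by zinc finger proteins and brings SETDB1 and HP1 to retroelements. ATRX remodels chromatin and, with its partner DAXX, places the histone variant H3.3 at such sites. In ES cells the SETDB1 and TRIM28 pathway is known for keeping endogenous retroviruses silent.

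RefSeq promoter sequences (build GRCm38.p6, 250 bases before to 50 bases after a transcription start) were found for 10 of 10 members, 14 promoters in all. Those of the 3 HP1 genes and Trim28 are shown because the HP1 RNAs followed different courses between 2i and epiLC, while Trim28 peaked at the same time as Cbx1. Capitals mark matches on either strand to an E2F-type motif, GGCGGGA or TCCCGCC, and to the E-box CACGTG, while a search for the TCF/LEF-type motif CTTTGAT or ATCAAAG found no match in the 14 promoters. The motifs do not overlap one another in these sequences. RefSeq lists 2 starts each for Cbx3 and Cbx5, and the first listed is shown.
Cbx1 promoter, chr11:96788885-96789184, plus strand: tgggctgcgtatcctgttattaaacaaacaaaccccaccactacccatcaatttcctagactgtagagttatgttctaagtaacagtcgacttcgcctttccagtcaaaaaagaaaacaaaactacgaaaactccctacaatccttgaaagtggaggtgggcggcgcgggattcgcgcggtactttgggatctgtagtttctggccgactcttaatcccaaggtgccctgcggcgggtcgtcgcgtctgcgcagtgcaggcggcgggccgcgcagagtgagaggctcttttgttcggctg
Cbx3 promoter, chr6:51470366-51470665, plus strand: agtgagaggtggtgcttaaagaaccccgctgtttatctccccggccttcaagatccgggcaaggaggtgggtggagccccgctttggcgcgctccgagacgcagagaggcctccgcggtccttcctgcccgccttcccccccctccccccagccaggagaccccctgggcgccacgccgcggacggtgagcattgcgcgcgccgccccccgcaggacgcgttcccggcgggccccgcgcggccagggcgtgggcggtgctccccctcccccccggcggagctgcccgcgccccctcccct
Cbx5 promoter, chr15:103239803-103240102, minus strand: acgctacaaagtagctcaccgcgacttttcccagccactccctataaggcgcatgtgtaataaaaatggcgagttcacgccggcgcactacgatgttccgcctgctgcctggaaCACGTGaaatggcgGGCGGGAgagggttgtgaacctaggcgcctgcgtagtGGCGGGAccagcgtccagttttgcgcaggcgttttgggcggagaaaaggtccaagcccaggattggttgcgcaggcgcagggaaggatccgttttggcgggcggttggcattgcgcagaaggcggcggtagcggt
Trim28 promoter, chr7:13023902-13024201, plus strand: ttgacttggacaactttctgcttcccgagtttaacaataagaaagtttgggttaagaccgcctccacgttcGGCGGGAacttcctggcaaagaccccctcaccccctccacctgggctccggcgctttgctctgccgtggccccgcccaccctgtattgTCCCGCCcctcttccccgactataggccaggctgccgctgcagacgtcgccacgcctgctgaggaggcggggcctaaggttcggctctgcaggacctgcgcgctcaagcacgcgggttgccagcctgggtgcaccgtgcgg
In the Cbx5 promoter shown there were 2 matches to the E2F-type motif and 1 to the E-box, and in the Trim28 promoter 2 to the E2F-type motif. None of the 3 motifs was found in the Cbx1 and Cbx3 sequences shown, nor in the promoter of the second Cbx5 start. Of all 32851 promoters of this length in the table, 11.3% held the E2F-type motif, 7.15% the E-box and 3.73% the TCF/LEF-type motif. Of the 14 promoters of the members, 4 held the E2F-type motif and 3 the E-box. By gene, which gives a gene with 2 starts more room for a match, 4 of the 10 members had the E2F-type motif (Cbx5, Trim28, Suv39h2 and Ehmt2). The E-box was found for 2 (Cbx5 and Ehmt2). A match describes the letters of the sequence and is not evidence of binding.

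In the RefSeq annotation of the mm10 assembly (GRCm38.p6), Cbx1 lies at chr11:96788680-96808982, Cbx3 at chr6:51470154-51483704 and Cbx5 at chr15:103191546-103239904. Trim28 lies at chr7:13024152-13031032, Setdb1 at chr3:95323525-95357202 and Atrx at chrX:105797615-105929372. Suv39h1 is at chrX:8061171-8074760, Suv39h2 at chr2:3455815-3474986, Ehmt1 at chr2:24790769-24919643 and Ehmt2 at chr17:34898463-34914073. The spans of Setdb1, Suv39h2 and Trim28 overlap the protein-coding genes Cers2, Dclre1c and Gm31649, those of Cbx1 and Atrx overlap noncoding genes, and whether counting used the strand is not given in the sources used here, so reads in the overlaps are uncertain. Cbx3 has near-identical pseudogenes, 8 of which have rows in the TPM tables. The row of Cbx3-ps6 reached 103.6 TPM, while the other 7 stayed at or under 5.35 TPM, so the split of reads between Cbx3 and its copies is uncertain.

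Sequencing depth is unknown, because FPKM and TPM values do not keep it, and between 12446 and 15351 genes reached a value of 1 per library. The targeted genes fell in the labelled libraries. Ctnnb1, the gene for β-catenin, averaged 5.69% of its shGFP level in the shBcat libraries of the FPKM table, 12.8% in QKO cells and 32.3% of the control level in epiLC at 96 h, and E2f6 averaged 30.5% in shE2F6. Naive markers (Nanog, Esrrb, Klf4, Tfcp2l1 and Zfp42) summed to 1035 and 1037 TPM in 2i, 130 and 133 TPM at 24 h and 229 and 212 TPM at 48 h. The formative markers Fgf5 and Pou3f1 were under 1 TPM in both 2i libraries, and the formative list summed to 27.2 and 29.3 TPM in 2i, 445 TPM in each library at 24 h and 232 and 224 TPM at 48 h. Core pluripotency markers summed to 1178 and 1211 TPM in 2i, 1326 and 1373 TPM at 24 h and 398 and 384 TPM at 48 h. Trophoblast markers summed to 20.5 and 21.2, 14.7 and 14.2, and 83.4 and 86.7 TPM at these times, and neuroectoderm markers to 11.2 and 12.0, 44.1 and 43.7, and 98.8 and 94.5 TPM. The part of these lists in the time course was not tested. In the FPKM table a group of 4 libraries stood apart, shGFP replicates 3 and 4 and both shE2F6 libraries, with mitochondrial transcripts at 19.3% to 22.9% of the summed FPKM against 6.23% to 10.3% in the other 8. In the QKO table, 7 fibroblast or feeder markers summed to 53.7, 70.4 and 80.0 TPM in shBcat libraries, against 307, 520 and 221 TPM in shGFP libraries.

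The members differed widely in level in naive ES cells. In the shGFP libraries Trim28 was highest, at 234 ± 30.5 FPKM (SD, n = 6), above 98.8% of the genes averaging at least 1 FPKM. Cbx3 (63.5 ± 5.88 FPKM), Cbx5 (51.0 ± 3.01 FPKM) and Cbx1 (44.6 ± 3.05 FPKM) followed. Cbx3 lay above both other HP1 genes in range, while the ranges of Cbx5 and Cbx1 overlapped. Within each of the 6 libraries Cbx5 was above Cbx1, with the closest values in replicate 2 (46.9 and 46.0 FPKM). Atrx (27.2 ± 8.08 FPKM), Setdb1 (25.9 ± 1.02 FPKM) and Ehmt2 (20.6 ± 4.83 FPKM) overlapped in turn. The lowest were Ehmt1 (7.97 ± 0.38 FPKM), Suv39h2 (7.51 ± 1.49 FPKM) and Suv39h1 (3.15 ± 0.985 FPKM), the last above only 24.8% of expressed genes. The untreated 2i cells of the TPM time course had the same top 5 by mean in the same order. They ran from Trim28 at 653 ± 9.23 TPM through Cbx3 at 253 ± 8.87 TPM to Atrx at 152 ± 1.36 TPM (SD, n = 2). The lowest gene was again Suv39h1, at 13.9 ± 0.17 TPM. In shGFP the place of Atrx in that order came from replicates 3 and 4, where it averaged 37.45 FPKM. In replicates 1, 2, 5 and 6 Atrx averaged 22.1 FPKM, below Setdb1 (25.4 FPKM) and Ehmt2 (23.5 FPKM).

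**Figure D1:**
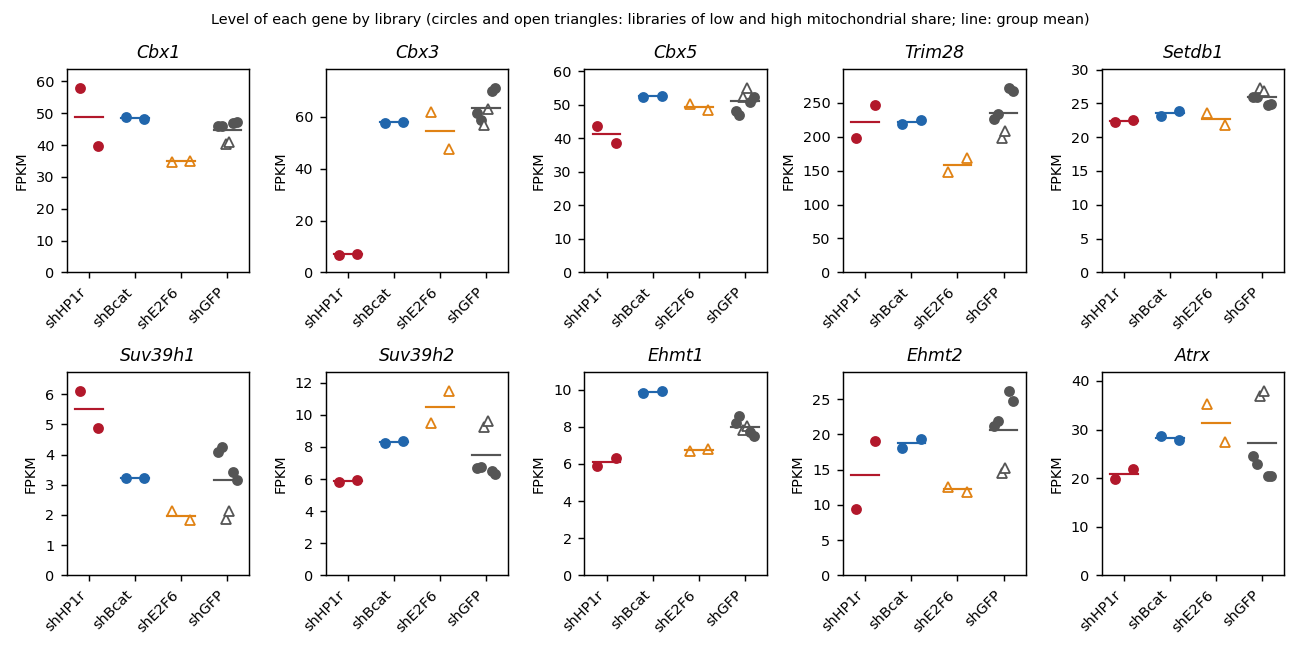
FPKM of each of the 10 genes in every V6.5 hairpin library (points; shHP1r, shBcat and shE2F6, 2 libraries each, and shGFP, 6 libraries; lines are group means, y axes start at 0). Open triangles are the 4 libraries of high mitochondrial share, and Cbx3 in the shHP1r libraries (6.6 and 7.25 FPKM) is the member farthest from the other groups.

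The shGFP libraries differed among themselves for most members. Replicates 3 and 4 lay outside the range of the other 4 libraries for 7 of the 10 genes. The share of all genes that did so was not computed, so the count shows nothing particular to the members. Atrx had 36.9 and 38.0 FPKM in those replicates, against 20.4 to 24.6 FPKM in the other 4, and Suv39h2 9.23 and 9.6 against 6.29 to 6.75 FPKM. Ehmt2 went the other way, with 14.5 and 15.2 FPKM against 21.2 to 26.2 FPKM, as did Suv39h1 with 1.88 and 2.12 against 3.17 to 4.25 FPKM. Trim28 and Cbx1 were also lower in replicates 3 and 4 and Setdb1 slightly higher, while Cbx3, Cbx5 and Ehmt1 overlapped. The mitochondrial share moved with these values, and its part in the results of the FPKM table was not tested beyond the fits with and without those libraries.

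The shHP1r libraries show whether the other HP1 genes were higher when 1 of them was knocked down. Cbx3, the gene for HP1γ, had 6.6 and 7.25 FPKM in the shHP1r libraries, against 56.7 to 71.2 FPKM with a median of 62.4 in shGFP. No shHP1r library came near the controls, and the mean was 10.9% of the shGFP mean (log2 difference -3.02 ± 0.12, SE; adjusted p = 6.92e-07, limma with Benjamini-Hochberg adjustment over 14407 genes). This checks the label, which spells the target HP1r and gives no gene symbol. Of the genes tested, 0.0208% differed by as much. In bulk RNA, fewer cells of a type and less RNA per cell cannot be told apart.

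Neither other HP1 gene rose past the threshold. Cbx1 had 58.0 and 39.8 FPKM in shHP1r, against 40.5 to 47.4 FPKM with a median of 46.0 in shGFP. Replicate 1 lay above every shGFP library and replicate 2 below every one, so the knockdown pair straddled the controls. The fitted difference was 0.11 with a 95% interval from -0.18 to 0.40 (limma, adjusted p = 0.693), and it was -0.16 without shHP1r replicate 1, 0.37 without shHP1r replicate 2 and -0.0094 after median-of-ratios scaling. Cbx5 had 43.8 and 38.7 FPKM in shHP1r, against 46.9 to 55.1 FPKM with a median of 51.8 in shGFP. Both shHP1r libraries lay below all 6 controls, yet the difference of -0.30 (95% interval -0.50 to -0.10) missed the threshold in limma, at adjusted p = 0.075, and passed it with a term for the high-mitochondrial libraries, at adjusted p = 0.0273. It was not called without those 4 libraries (-0.26; limma, adjusted p = 0.0640) or after median-of-ratios scaling (-0.42; 0.132). The interval of Cbx1 thus reaches a rise of 0.40, and that of Cbx5 ends below 0. Naive markers also differed between the shHP1r replicates, with sums of 534 and 869 FPKM, against 486 to 834 FPKM in shGFP. The 4 fibroblast markers of 7 that have rows in this table summed to 6.11 and 3.51 FPKM in shHP1r, against 0.716 to 1.81 FPKM in shGFP. Of these, Col1a1, Col1a2 and Col6a2 were under 1 FPKM in every library of both groups. The remaining row, Thy1, reached 1 FPKM in at least 1 library of each group. The part of these markers in the results was not tested.

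The summed HP1 RNA therefore came to 108 and 85.8 FPKM in the shHP1r libraries, against 150 to 171 FPKM in shGFP, a mean of 61.0% of the shGFP mean. Cbx1 and Cbx5 together averaged 90.2 ± 16.5 FPKM in shHP1r (SD, n = 2) and 95.7 ± 2.79 FPKM in shGFP (n = 6). The makeup of the sum shifted: Cbx3 made up 7.27% of it in shHP1r and 39.8% in shGFP, Cbx1 49.96% in shHP1r and 28.1% in shGFP, and Cbx5 42.8% in shHP1r and 32.1% in shGFP. In shBcat the sum stood at 158.9 FPKM in both libraries, and in shE2F6 at 147 and 131 FPKM. These sums count RNA and were given no test.

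**Figure D2:**
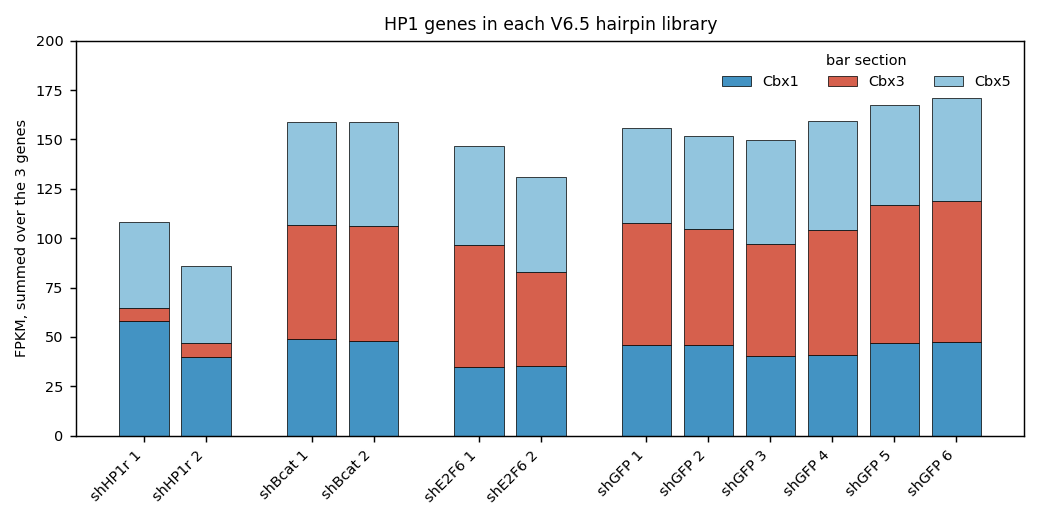
Stacked FPKM of Cbx1, Cbx3 and Cbx5 in each V6.5 hairpin library, with shHP1r left of shBcat, shE2F6 and shGFP (bars start at 0). The 2 shHP1r bars reach 108 and 85.8 FPKM with a thin Cbx3 section, and the 6 shGFP bars reach 150 to 171 FPKM.

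Among the writers, Ehmt1, the gene for GLP, fell in shHP1r. It had 5.86 and 6.29 FPKM in shHP1r, against 7.52 to 8.57 FPKM with a median of 7.92 in shGFP, with no overlap. The difference was -0.34 ± 0.08 (SE; limma, adjusted p = 0.0262), a size that 25.2% of the genes tested matched or exceeded, and it missed the threshold without shHP1r replicate 1 (adjusted p = 0.261) and with shHP1r and shGFP fitted alone (0.0987). Suv39h1 had 6.12 and 4.89 FPKM in shHP1r, above the 1.88 to 4.25 FPKM of shGFP, with a difference of 0.68 ± 0.22 (limma, adjusted p = 0.0988). Without the 4 high-mitochondrial libraries, Suv39h1 differed by 0.46 and passed (limma, adjusted p = 0.0472), as it did with a term for them (0.0204). Setdb1 (22.3 and 22.6 FPKM in shHP1r, against 24.7 to 27.3 in shGFP) and Suv39h2 (5.82 and 5.93 in shHP1r, against 6.29 to 9.6 in shGFP) lay below the controls without passing, at log2 differences of -0.20 and -0.29. Ehmt2, the gene for G9a, was uneven between the shHP1r replicates, with 9.43 and 19.1 FPKM against 14.5 to 26.2 FPKM in shGFP (-0.55, interval -1.13 to 0.04), and it was called with the library group term (-0.75; limma, adjusted p = 0.0253) but not without the 4 high-mitochondrial libraries (-0.75; 0.0638). Trim28 (198 and 246 FPKM in shHP1r, against 198 to 272 in shGFP) and Atrx (19.8 and 21.9, against 20.4 to 38.0 in shGFP) overlapped with the controls.

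In all, 0 of the 10 members were called higher and 2 lower in shHP1r, where 5.89% of the 14407 genes tested were called higher and 1.70% lower. Of those 2, Cbx3 is the gene the hairpin lowered. The members' median difference was -0.30, against 0.04 over all genes tested. Averaging the libraries of the table in pairs left no member past the threshold, with Cbx3 still at -3.02 (limma, adjusted p = 0.121).

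**Figure D3:**
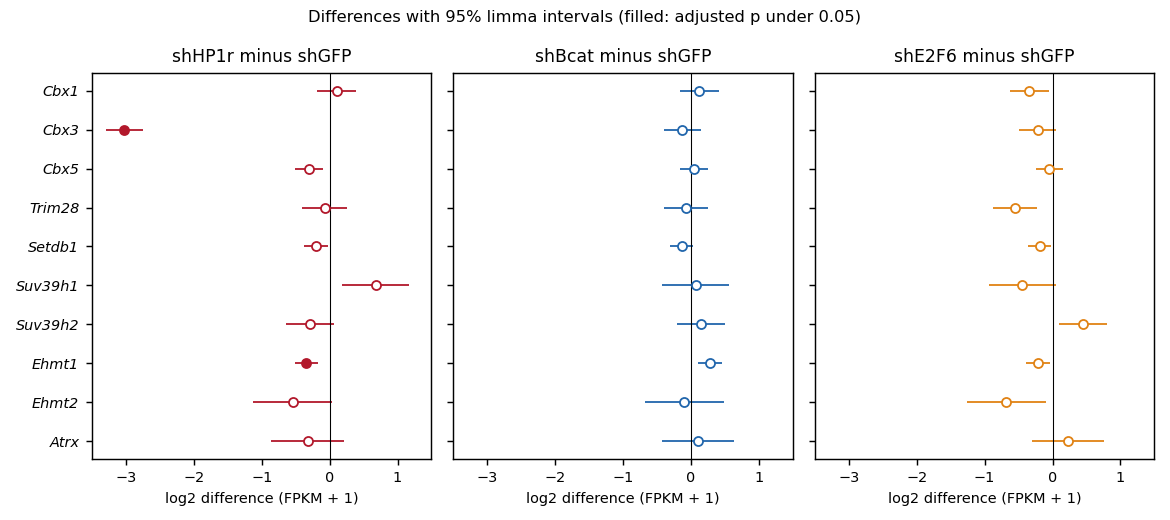
Differences of log2(FPKM + 1) for the 10 genes in shHP1r, shBcat and shE2F6, each minus shGFP, with 95% intervals from limma (filled points have an adjusted p under 0.05). The filled points are Cbx3 at -3.02 and Ehmt1 at -0.34 in shHP1r, and the shBcat and shE2F6 panels have none.

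Set against the other knockdowns directly, shHP1r again had lower Cbx3 (6.6 and 7.25 FPKM, against 57.7 and 58.1 in shBcat and 61.7 and 47.6 in shE2F6). After Cbx3, Ehmt1 had the smallest p against shBcat: 5.86 and 6.29 FPKM in shHP1r stood against 9.81 and 9.94 FPKM in shBcat (difference -0.62 ± 0.10, SE; limma, adjusted p = 0.00186). Those 2 genes were the members called in that comparison, both lower, where 6.97% of genes tested were called higher and 2.34% lower. Cbx1 differed by -0.01 between shHP1r and shBcat (95% interval -0.36 to 0.34) and Cbx5 by -0.34 (-0.59 to -0.10; limma, adjusted p = 0.0877). Fits without the high-mitochondrial libraries called 6 members here, and the shares of all genes given above belong to the main fit. Against shE2F6, Suv39h1 was higher in shHP1r, at 6.12 and 4.89 against 2.12 and 1.83 FPKM (1.12 ± 0.27; adjusted p = 0.0261), and Suv39h2 lower, at 5.82 and 5.93 against 9.48 and 11.5 FPKM (-0.74 ± 0.19; 0.0348). Both shE2F6 libraries belong to the high-mitochondrial group and no shHP1r library does. In that comparison 12.3% of genes tested were called higher and 3.17% lower (1774 and 456 genes), with a median difference of 0.26 over the whole table. Scaling by median-of-ratios moved it by -0.31 and turned the split to 1290 higher and 1385 lower, with 5 members called. The count of 3 members was 1 with a term for the library group and without any of shHP1r replicate 1, shE2F6 replicate 1 or shE2F6 replicate 2.

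With β-catenin knockdown in naive V6.5 cells, none of the 10 members passed the threshold in limma, where 3.51% of genes tested were called higher and 5.21% lower. An unadjusted p under 0.05 was found for 1 member (Ehmt1) and for 3277 of all 14407 genes tested. The members' median difference was 0.05, against 0.01 over all genes. Ehmt1 had 9.81 and 9.94 FPKM in shBcat, against 7.52 to 8.57 FPKM in shGFP, so both libraries lay above all 6 controls (0.28 ± 0.08; limma, adjusted p = 0.0538). Cbx1 (48.8 and 48.1 FPKM in shBcat, against 40.5 to 47.4 in shGFP) was likewise above the controls, with a difference of 0.12 and an interval from -0.17 to 0.41. Setdb1, with 23.2 and 23.8 FPKM in shBcat against 24.7 to 27.3 in shGFP, was below them. Without the 4 high-mitochondrial libraries, 3 members passed in limma, all higher in shBcat: Ehmt1 (0.28; adjusted p = 0.0380), Suv39h2 (0.30; 0.0161) and Atrx (0.34; 0.0392). The share of all genes called in that fit is not given here. For Suv39h2 the values then were 8.23 and 8.39 FPKM in shBcat, against 6.29 to 6.75 FPKM in the 4 remaining shGFP libraries, and for Atrx 28.6 and 27.9 FPKM against 20.4 to 24.6 FPKM. Formative markers summed to 23.6 and 25.4 FPKM in shBcat, against 7.75 to 13.8 FPKM in shGFP. Of the 4 formative markers, Fgf5 and Pou3f1 were under 1 FPKM in every library of both groups, so Otx2 and Dnmt3b carried the sum. Neuroectoderm markers summed to 9.26 and 9.46 FPKM in shBcat, against 5.26 to 6.73 FPKM in shGFP. The part of both lists in these results was not tested.

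Knockdown of E2F6, a repressor that works with HP1γ in a Polycomb-type complex, gave no called member either. An unadjusted p under 0.05 was found for 6 of 10 members and for 4857 of all 14407 genes tested. Over all genes, 0.410% were called higher and 0.652% lower (59 and 94 genes, and 153 and 86 after median-of-ratios scaling). FPKM values in shE2F6 were lower across the table: the median difference of all genes was -0.20, and that of the members was -0.22. That scaling moves the median of all genes by 0.20, and with it the differences of Cbx3 (0.03), Cbx5 (0.20), Setdb1 (0.05) and Ehmt1 (0.01) became positive, none of them called. Trim28 had 148 and 169 FPKM in shE2F6, against 198 to 272 FPKM in shGFP (-0.55 ± 0.15; limma, adjusted p = 0.0715), and -0.30 after scaling. Ehmt2 had 12.6 and 11.8 FPKM in shE2F6, against 14.5 to 26.2 in shGFP, and Cbx1 34.7 and 35.1 against 40.5 to 47.4. Within the high-mitochondrial libraries alone, where shE2F6 stands against shGFP replicates 3 and 4, no member was called, and Trim28 differed by -0.36 (limma, adjusted p = 0.0512). Without shGFP replicate 3 the count of called members was 3, and without shGFP replicate 4 it was 2. The shares of all genes called in those fits are not given here, so the counts show nothing particular to the members. Each of those fits also drops an shGFP library of high mitochondrial share, the share that both shE2F6 libraries have.

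The QKO cells gave a second look at β-catenin knockdown in 2i, with 3 libraries per group. Cbx3 was the member called, lower in shBcat, where 0.585% of 15562 genes tested were called higher and 1.56% lower (91 and 243 genes, and 170 and 174 after median-of-ratios scaling). It had 182, 190 and 179 TPM in QKO shBcat, against 225, 212 and 223 TPM in QKO shGFP (-0.26 ± 0.04, SE; limma, adjusted p = 0.0408), with no overlap. The row of its pseudogene Cbx3-ps6 stood the other way, with 85.1, 102 and 103.6 TPM in QKO shBcat against 79.6, 74.8 and 84.9 TPM in QKO shGFP (0.28 ± 0.08; limma, adjusted p = 0.0917). With the 8 pseudogene rows added to Cbx3, the sum averaged 283 ± 12.7 TPM in shBcat and 302 ± 11.5 TPM in shGFP (SD, n = 3 each), a difference of -0.09 that was not called (limma, adjusted p = 0.242). The call on Cbx3 alone was also lost after median-of-ratios scaling (adjusted p = 0.0562) and without QKO shBcat replicate 2 (0.124), QKO shBcat replicate 3 (0.122) or QKO shGFP replicate 1 (0.137). The summed fibroblast markers, from 53.7 to 80.0 TPM in shBcat and from 221 to 520 TPM in shGFP, moved with the groups, and their part in these results was not tested.

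**Figure D4:**
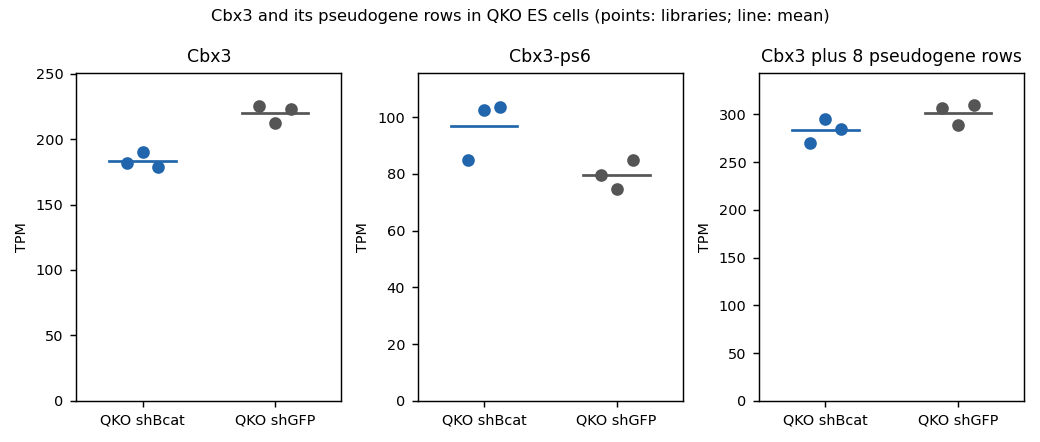
TPM of Cbx3, of its pseudogene row Cbx3-ps6 and of Cbx3 with all 8 pseudogene rows, in the 3 QKO shBcat and 3 QKO shGFP libraries (points; lines are means; y axes start at 0). Cbx3 is lower in shBcat, Cbx3-ps6 has a higher mean there (97.0 against 79.8 TPM), and the ranges of the sum overlap.

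No other member was called in QKO cells. Atrx had 134, 151 and 145 TPM in shBcat, against 127, 110 and 123.1 TPM in shGFP, without overlap (0.26 ± 0.07; limma, adjusted p = 0.0671). Suv39h1 had 13.8, 12.4 and 12.6 TPM in shBcat, against 16.5, 15.8 and 14.8 TPM in shGFP (-0.26 ± 0.07; adjusted p = 0.0704). Setdb1 averaged 79.1 ± 2.24 TPM in shBcat and 86.7 ± 1.85 TPM in shGFP, and Trim28 1495 ± 7.49 TPM in shBcat and 1602 ± 36.3 TPM in shGFP (SD, n = 3 each), and both were below the controls without passing. The differences of Cbx1 (0.05, interval -0.12 to 0.23), Cbx5 (0.05, -0.05 to 0.15), Suv39h2 (-0.01, -0.14 to 0.11), Ehmt1 (0.09, -0.03 to 0.21) and Ehmt2 (-0.0003, -0.11 to 0.11) had intervals within -0.14 and 0.23 on the log2 scale. Summed HP1 RNA averaged 515 ± 19.3 TPM in shBcat and 540 ± 20.0 TPM in shGFP. The members' median difference was -0.01, and that of all genes was -0.04.

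On entry into the epiLC state most members moved. At 24 h, 7 members were higher than in 2i and 2 lower. Over the whole table, 36.2% of 16559 genes tested were called higher and 39.8% lower, so a call alone says little here. After median-of-ratios scaling the split over all genes was 6505 higher and 6058 lower, against 5992 and 6586 as deposited, and Ehmt2 was no longer called (-0.073; limma, adjusted p = 0.0706). The members' median difference was 0.47, against -0.04 over all genes.

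Trim28 and Cbx1 peaked at 24 h. Trim28 had 1685 and 1600 TPM at 24 h, against 647 and 660 TPM in 2i, a 2.51-fold level (log2 difference 1.33 ± 0.03, SE; limma, adjusted p = 1.73e-07) that 9.91% of genes matched or exceeded in size. By 48 h it was down to 842 and 819 TPM (-0.98 ± 0.03 against 24 h; adjusted p = 7.99e-07), still above 2i by 0.35. Cbx1 had 382 and 381 TPM at 24 h, against 182 and 177 TPM in 2i (1.08 ± 0.03; limma, adjusted p = 1.59e-07). At 48 h Cbx1 was back at 189 and 187 TPM, 1.02 lower than at 24 h on the log2 scale, and its difference from 2i, 0.06, was not called (limma, adjusted p = 0.0510). The 24 h libraries thus stood clear of both other times for these 2 genes.

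The other HP1 genes followed separate paths. Cbx3 had 316 and 324 TPM at 24 h, against 260 and 247 TPM in 2i (0.34 ± 0.03; limma, adjusted p = 7.00e-05), and held 315 and 308 TPM at 48 h. With its pseudogene rows added the rise over 2i was 0.32 at 24 h and 0.30 at 48 h, both called. Cbx5 had 185 and 177 TPM at 24 h, against 185 and 184 TPM in 2i (-0.02, interval -0.10 to 0.05). It then came to 260 and 252 TPM at 48 h (0.50 ± 0.03 against 24 h; limma, adjusted p = 9.41e-06), above every earlier library. Summed HP1 RNA was 617 ± 12.7 TPM in 2i, 883 ± 0.877 TPM at 24 h and 756 ± 11.4 TPM at 48 h (SD, n = 2 each). Cbx1 made up 29.1%, 43.2% and 24.9% of the sum at these times, Cbx3 41.0%, 36.3% and 41.2%, and Cbx5 29.8%, 20.5% and 33.9%.

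Of the SUV39 pair, Suv39h1 climbed at both steps, with 13.8 and 14.02 TPM in 2i, 28.3 and 26.6 TPM at 24 h and 41.0 and 40.5 TPM at 48 h. Its total difference of 1.49 ± 0.04 (limma, adjusted p = 2.64e-07) was the largest of the set between 2i and 48 h. Suv39h2, with 18.2 and 18.5 TPM in 2i, had 28.0 and 28.5 TPM at 24 h and 28.2 and 27.4 TPM at 48 h. It started above Suv39h1 in 2i, overlapped it at 24 h and ended below it at 48 h.

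G9a and GLP transcripts changed in opposite directions. Ehmt1 had 30.9 and 34.3 TPM in 2i, 55.0 and 51.7 TPM at 24 h and 70.4 and 67.0 TPM at 48 h (1.05 ± 0.06 between 2i and 48 h; limma, adjusted p = 4.78e-06). Ehmt2 had 77.5 and 79.3 TPM in 2i, 71.7 and 70.8 TPM at 24 h and 51.2 and 52.4 TPM at 48 h (-0.59 ± 0.03; adjusted p = 3.48e-06). So Ehmt2 was the more abundant in 2i and Ehmt1 at 48 h, with no overlap at either time.

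Setdb1, the partner enzyme of TRIM28, changed less, with 41.6 and 45.2 TPM in 2i, 52.7 and 51.7 TPM at 24 h and 46.0 and 44.6 TPM at 48 h. Its rise at 24 h (0.26 ± 0.05; limma, adjusted p = 0.0017) and its fall at 48 h (-0.20 ± 0.05; 0.00656) were both called, and 48 h against 2i was not. Atrx fell to 101 and 103 TPM at 24 h, against 153 and 151 TPM in 2i (-0.56 ± 0.03; limma, adjusted p = 2.56e-06), and stood at 116 and 118 TPM at 48 h.

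From 24 h to 48 h, 4 members were called higher and 4 lower, where 45.2% of genes tested were called higher and 28.9% lower. Between 2i and 48 h, 6 were higher and 2 lower, where 45.1% and 30.8% were. The medians of the members were -0.03 and 0.32, against 0.12 and 0.11 over all genes. Median-of-ratios scaling moves the median of all genes by -0.15 between 24 h and 48 h, and turns the split of calls over all genes (7490 higher and 4789 lower) to 5874 higher and 6383 lower. Relative to that shift Cbx3 (-0.21) and Suv39h2 (-0.19) were called lower at 48 h than at 24 h, and Atrx (0.02; limma, adjusted p = 0.566) was no longer called.

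**Figure D5:**
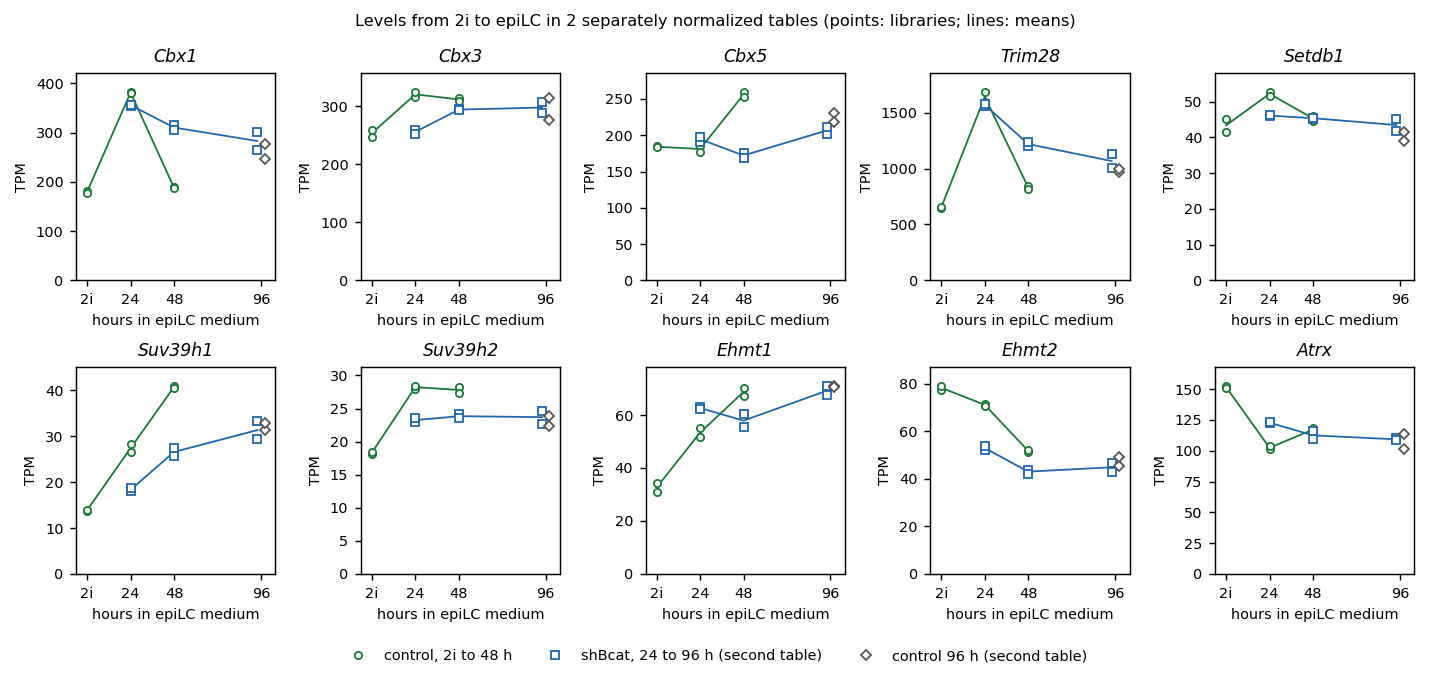
TPM of the 10 genes in 2i and over hours in epiLC medium: control cells in 2i, at 24 h and at 48 h (green circles, 1 table), and shBcat cells at 24 h, 48 h and 96 h (blue squares) with control cells at 96 h (grey diamonds), both from a second table. Points are libraries and lines join means, the 96 h groups are drawn side by side, and the tables were normalized separately. Cbx1 and Trim28 peak at 24 h in control cells, and all 4 libraries of the 96 h groups lie close together for most genes.

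In the shBcat epiLC table, Trim28 had 1560 and 1579 TPM at 24 h, 1200 and 1238 TPM at 48 h and 1001 and 1134 TPM at 96 h, called lower at each step (-0.36 and -0.19; limma, adjusted p = 0.00293 and 0.0382). Cbx1 had 354 and 357 TPM at 24 h, 314 and 306 TPM at 48 h and 301 and 265 TPM at 96 h, and neither step was called (-0.20 and -0.14; limma, adjusted p = 0.0747 and 0.188). Cbx5 was lower at 48 h, with 176 and 169 TPM against 191 and 198 TPM at 24 h (-0.18 ± 0.05; limma, adjusted p = 0.0307), and higher again at 96 h, with 201 and 212 TPM (0.26 ± 0.05; adjusted p = 0.00665). Control cells at the matching times had higher Cbx5 at 48 h than at 24 h. Because those controls lie in the other table, the difference between the courses was not tested.

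Suv39h1 had 18.0 and 18.7 TPM at 24 h, 25.6 and 27.5 TPM at 48 h and 29.3 and 33.4 TPM at 96 h in shBcat cells (first step 0.51 ± 0.08; limma, adjusted p = 0.00194). Ehmt2 fell to 44.0 and 42.2 TPM at 48 h, against 52.3 and 53.8 TPM at 24 h (-0.29 ± 0.06; limma, adjusted p = 0.0107). Cbx3 rose to 295 and 293 TPM at 48 h, against 259 and 253 TPM at 24 h (0.20 ± 0.06; limma, adjusted p = 0.0447), and this was not called with its pseudogene rows added (0.19; adjusted p = 0.0637). Ehmt1 had 63.1 and 62.3 TPM at 24 h, 55.4 and 60.3 TPM at 48 h and 67.4 and 70.9 TPM at 96 h, called higher at the last step (0.25 ± 0.06; limma, adjusted p = 0.0116). Setdb1, Suv39h2 and Atrx were not called at either step. From 24 h to 48 h, 2 members were called higher and 3 lower, where 15.7% and 17.8% of 15304 genes tested were, and from 48 h to 96 h 2 higher and 1 lower, where 25.2% and 9.83% were (3856 and 1504 genes, and 2561 and 2372 after median-of-ratios scaling). Leaving out any 1 library of 24 h or 48 h left 2 or 3 of the 5 calls of the first step, and leaving out either 48 h library left 1 of the 3 calls of the last step.

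At 96 h, shBcat and control epiLC differed in none of the 10 members by limma. A single member, Cbx5, had an unadjusted p under 0.05, as had 3056 of all 15304 genes tested. By adjusted p, 2.29% of genes tested were called higher and 2.54% lower. Cbx5 had 201 and 212 TPM in shBcat, against 230 and 218 TPM in control (-0.12, interval -0.23 to 0.00; limma, adjusted p = 0.247). Cbx1 (301 and 265 TPM in shBcat, against 276 and 246 in control) and Cbx3 (307 and 288, against 313 and 277 in control) overlapped. The interval of Cbx1 ran from -0.06 to 0.28. Summed HP1 RNA averaged 787 ± 31.6 TPM in shBcat and 781 ± 55.4 TPM in control (SD, n = 2 each). Cbx3-ps6 was lower in shBcat, at 21.2 and 18.4 TPM against 33.97 and 30.8 TPM in control (-0.69 ± 0.11; limma, adjusted p = 0.0116), while Cbx3 with all its pseudogene rows differed by -0.04.

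A wider list of 53 genes tied to H3K9 methylation was read beside the set. In shHP1r against shGFP, 3 of 51 tested were higher and 5 lower, where 5.89% and 1.70% of all genes were. The 3 were Mecom, which can methylate H3K9 (1.14 ± 0.0919 FPKM in shHP1r and 0.325 ± 0.0383 FPKM in shGFP), Zfp809, a zinc finger protein that guides TRIM28 to retroviruses (26.1 ± 1.48 FPKM in shHP1r and 15.6 ± 1.70 FPKM in shGFP), and Senp7, an HP1-binding SUMO protease (1.57 ± 0.0990 FPKM in shHP1r and 0.837 ± 0.189 FPKM in shGFP). The lower ones of smallest p were the H3K9 demethylase Kdm3b (-0.61; limma, adjusted p = 0.00653), the chromatin assembly subunit Chaf1b (-0.62; 0.0136) and Uhrf1, which links H3K9 methylation to DNA methylation (-0.45; 0.0223). With shBcat, 0 were higher and 4 lower (3.51% and 5.21% of all genes), among them Kdm3b (18.5 ± 0.566 FPKM in shBcat and 36.0 ± 2.26 FPKM in shGFP; -0.92), Kdm3a (37.5 FPKM in both shBcat libraries and 61.0 ± 3.002 FPKM in shGFP; -0.69) and Mecom (-0.35). With shE2F6 no gene of the list passed in limma, where 0.410% and 0.652% of all genes were called higher and lower. An unadjusted p under 0.05 was found for 12 of the 51 tested, and for 4857 of all 14407 genes tested. The direct comparisons with shHP1r called 5 higher and 1 lower against shBcat (6.97% and 2.34% of all genes), and 5 higher and 4 lower against shE2F6 (12.3% and 3.17%). Mecom was the first by p among those higher in both (1.04 and 0.83), followed by Zfp809 (1.02 and 0.73), and Chaf1b was the first among those lower (-0.65 and -0.74). Mecom averaged 0.04 FPKM in shBcat and 0.2005 FPKM in shE2F6, near the floor as in shGFP. It met the filter of 1 FPKM in 2 libraries only through shHP1r, so its calls in this table are description and no support. H3f3b, an H3.3 gene, was also higher than in shBcat (0.66), and Zfp57, which guards imprints with TRIM28, higher than in shE2F6 (0.80), where Kdm3a (-0.49) and the HUSH subunit Mphosph8 (-0.68) were also lower.

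Within the QKO table, where 0.585% of all genes were called higher and 1.56% lower, 1 of 52 genes of the wider list passed, the demethylase Kdm4b, at 28.1 ± 1.67 TPM in shBcat and 21.3 ± 1.60 TPM in shGFP (0.39; limma, adjusted p = 0.0470). From 2i to 24 h, 29 of 52 were higher and 18 lower, where 36.2% and 39.8% of all genes were. The smallest p among the higher belonged to the DNA methyltransferases Dnmt3a (450 TPM at 24 h and 62.4 TPM in 2i; 2.83) and Dnmt3b (4.63) and the remodeller Hells (1.00), and among the lower to Kdm3a (-1.38), Kdm3b (-1.01) and Kmt5c, an H4K20 methyltransferase (-0.96). From 24 h to 48 h, where 45.2% of all genes were called higher and 28.9% lower, 16 were higher, led by the demethylases Kdm7a (1.53) and Phf2 (1.199) and by Smchd1 (0.52), and 26 lower, led by Dnmt3a (-1.79), Hells (-1.10) and Smarcad1, a remodeller that binds TRIM28 (-0.93). Between 2i and 48 h, with 45.1% of all genes called higher and 30.8% lower, 23 were higher, led by Dnmt3b (3.31), Pphln1 (1.31) and Dnmt3a (1.04), and 19 lower, led by Kdm3a (-1.91), Zfp57 (-1.81) and Tasor (-1.30). Pphln1 and Tasor encode subunits of the same HUSH silencing complex, and they stood on opposite sides.

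Across shBcat epiLC, 6 of 52 were higher and 21 lower at 48 h than at 24 h (15.7% and 17.8% of all genes), with H3f3b (0.31), Mecom (0.82) and Smchd1 (0.26) first among the higher and Zfp57 (-1.04), Smarcad1 (-0.66) and Kdm3a (-0.61) among the lower. From 48 h to 96 h, where 25.2% of all genes were called higher and 9.83% lower, 9 were higher, led by Kdm7a (0.83), Phf2 (0.62) and Kmt5c (0.45), and 12 lower, led by Dnmt3a (-0.86), Zfp809 (-0.47) and Smarcad1 (-0.34). At 96 h, where 2.29% of all genes were called higher and 2.54% lower, shBcat epiLC had higher Resf1, a partner of SETDB1 (49.4 ± 0.247 TPM in shBcat and 39.1 ± 1.75 TPM in control; 0.33; limma, adjusted p = 0.0255), higher Zfp57 (0.27; 0.0467) and lower Chaf1b (-0.21; 0.0494).

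Over the 12 V6.5 hairpin libraries, the genes whose log2(FPKM + 1) followed Cbx3 most closely were Tnpo1, Zfp414 and Ubald2, with Pearson r of 0.94, 0.93 and 0.92 among 11050 named genes. Tnpo1 had 23.4 and 29.9 FPKM in shHP1r, against 47.9 to 51.8 FPKM in shGFP, and was lowest in the 2 shHP1r libraries. Over the 6 libraries of 2i, 24 h and 48 h, the genes most like Cbx5 were Numa1, Mettl9 and Mpg, each with r of 0.999 after rounding, among 13022 genes. Numa1 had 50.5 and 50.5 TPM in 2i, 51.7 and 48.04 TPM at 24 h and 80.9 and 78.6 TPM at 48 h. With 3 groups behind 6 libraries, such values describe a shared step at 48 h.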

How the data were processed

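The authors deposited gene tables in FPKM for 12 hairpin libraries and in TPM for 20 others, in 3 tables. Per the labels' protocols, RNA was extracted with TRIzol, treated with DNase and made into TruSeq RNA libraries. Per the submitters' processing notes, bcl2fastq 2.18 and Bowtie2 were used throughout, TopHat2 2.0.13 and Cufflinks 2.2.1 for the FPKM table and STAR and RSEM for the TPM tables, on mm10; other versions are not given in the sources used here. The FPKM table holds 17043 genes and 0 zero values, so genes at 0 in any library have no row. One per-sample column of that table (1 in all) held negative values and was not used.

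Each table was fitted alone, since tables were normalized separately: limma 3.58.1 (statmod 1.5.0, R 4.3.3) on log2(value + 1), all libraries of a table in 1 fit, with trended and robust moderation. Genes reaching 1 in 2 or more libraries were tested, two-sided, with Benjamini-Hochberg adjustment over all of them and a threshold of 0.05. Fold changes are on the log2(value + 1) scale, which understates changes of low genes. The procedure was also run on simulated data, with noise drawn independently for each gene and library. That setting had no counterpart to the 4 high-mitochondrial libraries, and its outcome is not given here. The text names the 10 members, up to 3 genes of the wider list by smallest p per comparison and direction, and the 3 genes most like Cbx3 and Cbx5. Members and lists were chosen with earlier results of these data known. Depth is unknown, so no counting intervals are given.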

Additional observations from a re-analysis of the deposited data

Results flagged for a closer look

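Between 24 h and 48 h of epiLC culture, 4 members differed in opposite directions in shBcat cells and in control cells, with every library of the later time on one side of the earlier time in each. With 2 libraries per time such separation is easily reached, and 45.2% and 28.9% of genes tested were called higher and lower in the control step. The share of all genes with this opposite pattern was not computed, so the count shows nothing particular to the members. Cbx3 differed by 0.20 in shBcat cells and by -0.040 in control cells on the log2 scale, where the control value was not called (limma, adjusted p = 0.297) and the shBcat value was not called with the pseudogene rows added (0.19; 0.0637). Cbx5 differed by -0.18 in shBcat cells and by 0.50 in control cells. For Ehmt1 the values were -0.11 in shBcat cells and 0.36 in control cells, and for Atrx -0.13 in shBcat cells and 0.19 in control cells. Neither shBcat value was called (limma, adjusted p = 0.156 for Ehmt1 and 0.143 for Atrx), and the control difference of Atrx was 0.02 and not called after median-of-ratios scaling (0.566). The courses come from separately normalized tables, so these differences were not tested.

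The effect of shBcat also had opposite signs between settings for 2 members. Trim28 differed by -0.10 in QKO cells and by 0.11 in epiLC at 96 h. Setdb1 differed by -0.14 in V6.5 cells in 2i, by -0.13 in QKO cells and by 0.10 in epiLC at 96 h. None of these 5 values passed the threshold in limma, and the differences between settings were not tested. The share of all genes with opposite signs was not computed.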

How the results depend on the processing

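Over the 10 members and 12 comparisons, 1665 alternative values of single genes were computed, of which 53 lost a call, 52 gained one and the others kept their side of the threshold. The sign changed in 55 in all, none of them a called value. Cbx1 in shHP1r against shGFP was -0.0094 after median-of-ratios scaling, and between -0.16 and 0.37 with 1 library left out. Cbx5 in the same comparison passed with a term for the library set (-0.26; limma, adjusted p = 0.0273). It was not called without the 4 high-mitochondrial libraries (-0.26; limma, adjusted p = 0.0640) or after median-of-ratios scaling (-0.42; 0.132).

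Counts of called members changed as follows. For shHP1r against shGFP (2), it was 1 with those groups alone, 5 with the library set term, 3 without the 4 high-mitochondrial libraries and 0 with libraries averaged in pairs. For shBcat against shGFP (0), it was 1 with a minimum of 5, and 3 with the library set term or without the 4 high-mitochondrial libraries. For shHP1r against shBcat (2), it was 6 with either of those, and 1 with averaged pairs. For shHP1r against shE2F6 (3), it was 5 with scaling or the compared groups alone, 1 with the set term and 0 with averaged pairs. The QKO count of 1 was 0 with no filter, no variance trend, scaling, or Cbx3 summed with its pseudogenes. The first shBcat epiLC step (5) gave 3 with no filter or no trend, 7 with the compared groups alone and 6 with the replicate block. The cause was not tested. Apart from median-of-ratios scaling, calls over all genes are given above for the main fits alone. The counts from other fits, in the text above as here and below, therefore describe the members without a share of all genes beside them.

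With 1 library left out, counts ran from 1 to 2 for shHP1r against shGFP, 0 to 3 for shE2F6 against shGFP, 1 to 3 for shHP1r against shE2F6, 0 to 1 in QKO cells, 2 to 3 for the first and 1 to 3 for the last shBcat epiLC step. With the replicate number as a block, counts were 6 for shE2F6 against shGFP, 5 for shHP1r against shBcat, 7 for shHP1r against shE2F6 and 0 in QKO cells. Replicate numbers 3 to 6 occur in shGFP alone, so this fit set shE2F6 against shGFP replicates 1 and 2 only. Those shGFP libraries are of low mitochondrial share and both shE2F6 libraries of high share, so hairpin and share cannot be told apart in that count. Same-numbered QKO libraries deviated together with r of -0.01, -0.04 and 0.13, and same-numbered shBcat and control epiLC libraries at 96 h with r of 0.28. Sources used here do not say whether the numbers mark pairs, and these values cannot settle it. Leaving out the 4 high-mitochondrial libraries, fitting them alone and summing Cbx3 with its pseudogenes were chosen after seeing the data.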
